A study of Mus musculus with 38 samples.

Results

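Interleukin-6 (Il6), its receptor chains and the feedback inhibitor Socs3 were followed gene by gene through cardiomyocytes, endothelial cells (ECs) and fibroblasts of the mouse heart, 2 hours after an ischemic insult. The 8 members were the rows of the count table whose Ensembl identifier carries the symbol Il6, Il6ra, Il6st, Lif, Lifr, Osmr, Stat3 or Socs3, which makes 8 of 35682 genes. The rule was membership of the family, applied with earlier results of these data known, and all 8 were found once each. The question was which cells hold RNA for the ligands, which hold RNA for the receptors, and whether ischemia with reperfusion or pretreatment with empagliflozin (EMPA), an inhibitor of the renal sodium-glucose cotransporter SGLT2, moved either side.

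All mice were C57BL/6 males of 8 to 12 weeks. Those labeled SHAM (Sham) had surgery without coronary occlusion, and those labeled Control_IR (Control-AMI) had the left anterior descending artery tied for 30 minutes and reperfused for 2 hours. Both of these groups were gavaged with vehicle, 5% DMSO in saline, for 6 weeks. Those labeled EMPA_IR (EMPA–Pre-AMI) received EMPA at 10 mg/kg per day for the same 6 weeks and then the same ischemia and reperfusion. No group received EMPA without infarction, so any effect of the drug on uninjured hearts cannot be told apart from its effect after infarction. Each library held cells pooled from 2 hearts, taken from the part below the suture after collagenase digestion. Cardiomyocytes were the pellet of a low-speed spin and were not sorted, ECs were sorted as CD45- CD31+ cells and fibroblasts as CD45- CD31- CD90+ cells. Sham, Control-AMI and EMPA–Pre-AMI had 4, 5 and 4 libraries of cardiomyocytes, 4, 4 and 5 of ECs, and 4, 4 and 4 of fibroblasts. The p-values therefore measure the spread between libraries of pooled hearts.

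As background, the cytokines of this family signal through a shared receptor chain, gp130, which is encoded by Il6st. IL-6 first binds its own alpha chain, encoded by Il6ra, and this chain can sit on the cell or be shed and hand the cytokine to cells that lack it. Leukemia inhibitory factor (Lif) pairs gp130 with the chain encoded by Lifr, and oncostatin M pairs it with the chain encoded by Osmr. Kinases bound to these chains phosphorylate STAT3, which moves to the nucleus and switches on genes that include Socs3, and the SOCS3 protein then binds gp130 and stops the signal. RNA levels do not show whether STAT3 is phosphorylated.

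The promoters of Il6 and Socs3, the inducible ligand and the inducible inhibitor of the set, are shown because these 2 genes had the widest differences between groups. The windows come from RefSeq (table build GRCm38.p6), run from 250 bases before to 50 after the annotated start, and were each matched once, letter for letter, in GRCm39. The Il6 window lies at chr5:30217862-30218161 on the plus strand and the Socs3 window at chr11:117860143-117860442 on the minus strand. Capitals mark the motifs that were searched on both strands.
Il6: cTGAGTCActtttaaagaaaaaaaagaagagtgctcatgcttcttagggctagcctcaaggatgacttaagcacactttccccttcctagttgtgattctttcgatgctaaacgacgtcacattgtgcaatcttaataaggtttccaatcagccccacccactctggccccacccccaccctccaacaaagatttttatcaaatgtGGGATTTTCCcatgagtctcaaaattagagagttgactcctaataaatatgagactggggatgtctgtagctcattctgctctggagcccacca
Socs3: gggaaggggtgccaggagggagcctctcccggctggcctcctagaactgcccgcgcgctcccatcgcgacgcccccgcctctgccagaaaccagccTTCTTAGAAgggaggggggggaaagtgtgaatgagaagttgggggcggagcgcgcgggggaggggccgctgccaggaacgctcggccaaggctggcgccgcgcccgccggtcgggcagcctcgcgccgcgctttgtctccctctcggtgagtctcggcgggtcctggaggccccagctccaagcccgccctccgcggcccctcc
In Il6 the capitals are an AP-1 motif (TGANTCA) that begins 249 bases before the start and an NF-kappaB motif (GGGNN followed by TTTCC) that begins 44 bases before it. In Socs3 they are a STAT motif (TTCNNNGAA) that begins 154 bases before the start. Of 32851 promoter windows of the same length, 8.3% held the STAT motif, 1.63% the NF-kappaB motif and 7.81% the AP-1 motif. Among the other members, the Lif window held an AP-1 motif that begins 228 bases before the start and the Osmr window one that begins 3 bases after it, whereas the windows of Il6ra, Il6st, Lifr and Stat3 held none of the 3 letter patterns. A match describes the letters of the window and says nothing of whether a factor was bound there.

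Levels are given as CPM, counts relative to library size, scaled by TMM over all 38 libraries so that populations stand on 1 scale, as mean ± SD over libraries. Fold changes are on the log2 scale, with the standard error (SE), from a fit of each population alone. FDR stands for the p-value of edgeR's quasi-likelihood test after Benjamini-Hochberg adjustment over all genes tested, with a threshold of 0.05. The libraries are of the 3′ tag type, so levels of different genes are not compared. Totals ran from 1352514 to 2195308 counts in ECs, from 2031716 to 4509284 in cardiomyocytes and from 1946056 to 2821373 in fibroblasts, and mitochondrial transcripts took 46.6% to 66.01% of the cardiomyocyte counts but at most 14.6% in ECs and 12.5% in fibroblasts. In these totals 3 counts, taken as the floor of detection, correspond to between 0.665 and 2.22 CPM before scaling. In bulk RNA, fewer cells of a type and less RNA per cell cannot be told apart.

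The labeled populations carried their own defining markers, with traces of the others. Myh6, the cardiac myosin heavy chain, lay at 5665 to 20426 CPM in cardiomyocytes and at most at 222 CPM elsewhere. Pecam1, which encodes CD31, was at 687 to 1546 CPM in ECs, at 161 to 414 CPM in cardiomyocytes and at 6.98 to 83.7 CPM in fibroblasts. Dcn, a fibroblast proteoglycan, was at 7324 to 11559 CPM in fibroblasts and at 272 to 3480 CPM in ECs. The unsorted cardiomyocytes thus also carried fibroblast RNA, with a summed level of 10 fibroblast markers of 475 to 4498 CPM. The leukocyte gene Ptprc, which encodes CD45, was at 0 in 1 of 13 EC libraries and in 3 of 12 fibroblast libraries, and in no cardiomyocyte library.

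In ECs the fibroblast markers moved with the groups. Their summed level was 416 to 1097 CPM in Sham, 1487 to 5547 CPM in Control-AMI and 367 to 734 CPM in EMPA–Pre-AMI, and 8 of the 9 tested markers passed the test upward in Control-AMI against Sham, 9 of 9 downward in EMPA–Pre-AMI against Control-AMI, and 0 of 9 in EMPA–Pre-AMI against Sham. The 10 endothelial markers summed to 9190.4 to 9971 CPM, 4821 to 6544 CPM and 6601 to 9407 CPM in the same order. The 12 leukocyte markers summed to 9.50 to 24.1 CPM, 25.9 to 467 CPM and 14.6 to 93.2 CPM, the highest value being that of Control-AMI replicate 3. The leukocyte medians were 11.6, 39.4 and 29.4 CPM in the same order, and 0 of 5 tested leukocyte markers were called in either infarcted group against Sham. These marker values stand beside every EC result below, though they are repeated only for some members. Their part in any EC result was not tested.

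Il6, the ligand of the family, was at or near 0 in every Sham population and was higher after ischemia and reperfusion in both sorted populations. In fibroblasts the 4 Sham libraries were at 2.55, 2.65, 0 and 1.85 CPM, the 4 Control-AMI libraries at 9.93, 46.98, 37.4 and 76.9 CPM and the 4 EMPA–Pre-AMI libraries at 28.2, 34.1, 25.2 and 81.8 CPM. Every library of either infarcted group lay above every Sham library, and the highest of each infarcted group was its replicate 4. Il6 rose from 1.76 ± 1.23 CPM in Sham to 42.8 ± 27.6 CPM in Control-AMI (log2 change 4.53, SE 0.76, FDR 0.00691) and to 42.3 ± 26.6 CPM in EMPA–Pre-AMI (log2 change 4.53, SE 0.77, FDR 0.00685). Since the Sham libraries held only 0 to 10 counts of Il6, the size of this fold change is loosely set, with a 95% interval of 2.86 to 6.20 on the log2 scale for Control-AMI against Sham. The labels number the sample-sheet list that each library was on, and within list 4, which holds 1 Sham, 3 Control-AMI and 2 EMPA–Pre-AMI fibroblast libraries, the calls were lost at 3.61 (FDR 0.434) and 3.53 (FDR 0.465). Control-AMI replicate 4, the highest of its group, also had mural markers (those of pericytes and smooth muscle) that summed to 4366 CPM against 649 to 1059 CPM in the other Control-AMI libraries, and their part in the result was not tested.

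In ECs no Il6 count was found in any of the 4 Sham libraries, whereas the Control-AMI libraries were at 3.49, 16.4, 10.3 and 8.41 CPM, from 12 to 44 counts, and the EMPA–Pre-AMI libraries at 5.45, 15.3, 3.19, 11.6 and 4.18 CPM, from 9 to 45 counts. All 9 libraries from infarcted hearts were above all 4 Sham libraries. Against a floor of 3 counts in a Sham library, Il6 was at least 7.40-fold higher in Control-AMI (FDR 0.000714) and at least 6.09-fold higher in EMPA–Pre-AMI (FDR 0.000661). The fibroblast markers were also higher in Control-AMI than in Sham, whereas in EMPA–Pre-AMI they summed to 367 to 734 CPM against 416 to 1097 CPM in Sham. The leukocyte markers summed to 14.6 to 93.2 CPM in EMPA–Pre-AMI against 9.50 to 24.1 CPM in Sham. The part of either list was not tested.

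In cardiomyocytes the Sham libraries were at 1.93, 0, 0.782 and 2.30 CPM, which is 0 to 4 counts, the Control-AMI libraries at 4.47, 2.99, 12.2, 5.75 and 5.78 CPM, which is 4 to 16 counts, and the EMPA–Pre-AMI libraries at 6.76, 12.9, 8.34 and 1.62 CPM, which is 2 to 13 counts. All Control-AMI libraries lay above all Sham libraries, as did 3 of the 4 EMPA–Pre-AMI libraries. Neither difference passed the test over all genes (log2 change 2.24, SE 0.71, FDR 0.781 against Sham for Control-AMI, and log2 change 2.52, SE 0.74, FDR 0.130 for EMPA–Pre-AMI). EMPA–Pre-AMI replicate 4 was the only library of its group on the same sample-sheet list as the Sham and Control-AMI cardiomyocytes. Without it the EMPA–Pre-AMI difference was 2.89 with an FDR of 0.0157, a fit in which list and treatment cannot be told apart. With the list as a term that difference was 0.33. In that fit replicate 4 alone carries the EMPA–Pre-AMI side, here and for the other cardiomyocyte members below. The fibroblast markers of the cardiomyocyte libraries summed to 2439 to 3558 CPM in Sham and 2054 to 4498 CPM in Control-AMI. In EMPA–Pre-AMI they summed to 475 to 2737 CPM, and their part was not tested.

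**Figure D1:**
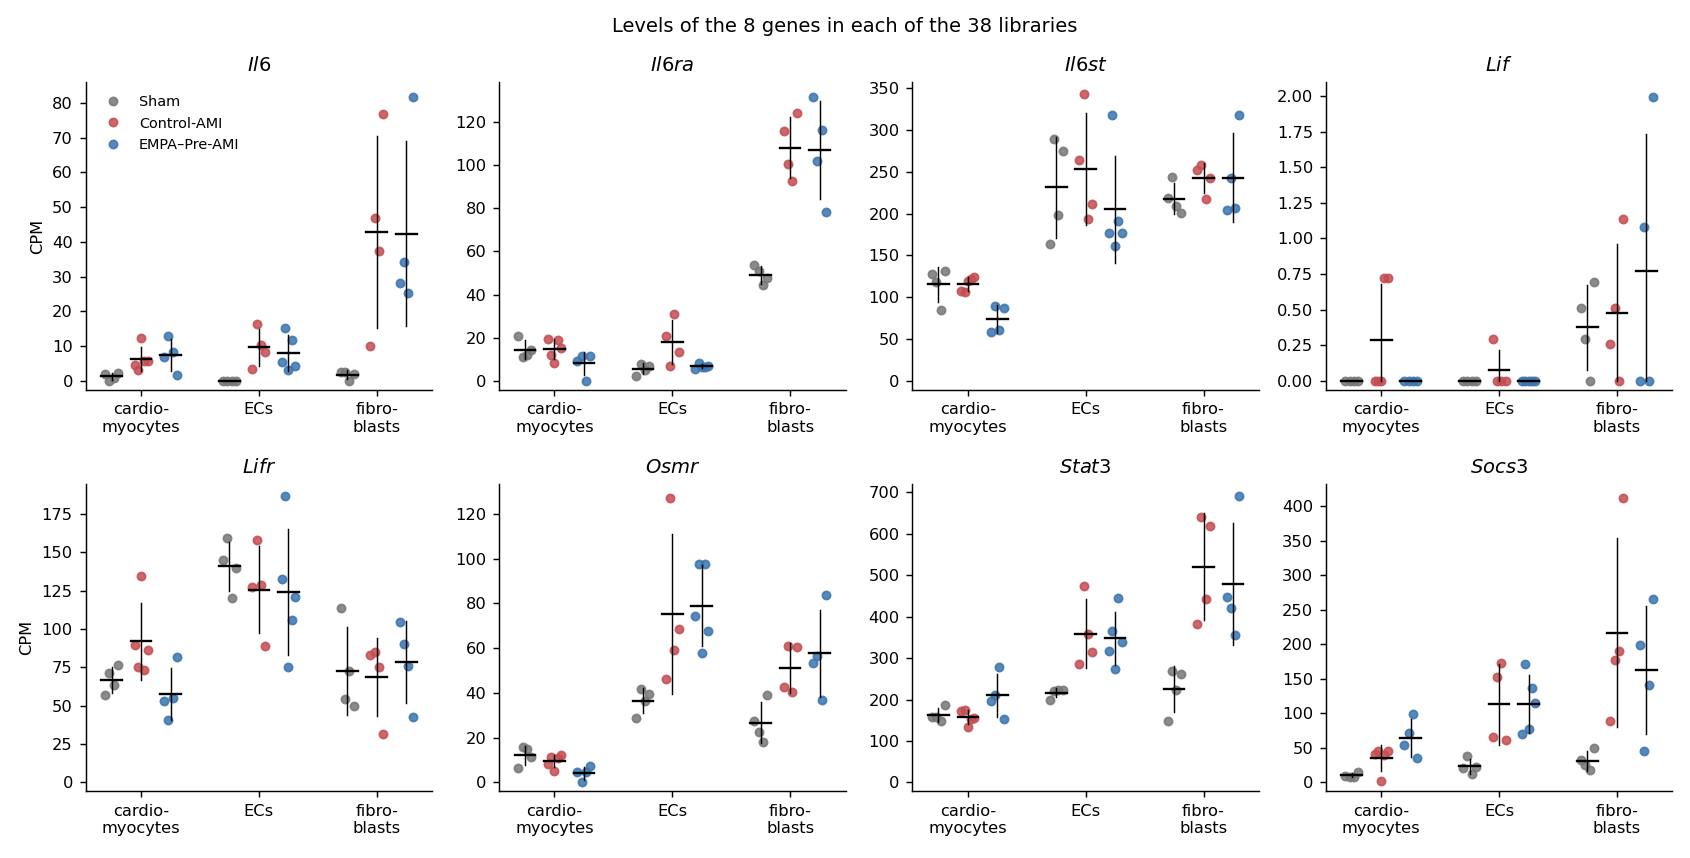
Levels in CPM (vertical axes, linear, own range in each panel) of the 8 members in every library, by population and treatment group, with 1 point per library, a black line at the group mean and a bar of 1 SD cut at 0. Il6 lies between 0 and 2.65 CPM in all Sham libraries and reaches 81.8 CPM in fibroblasts of infarcted hearts, while Il6st and Lifr show overlapping groups in ECs and fibroblasts.

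The other ligands of the family were near the limit of detection. Lif had 25 counts in all, spread over 11 libraries, with at most 1 count in any cardiomyocyte or EC library and at most 6 in a fibroblast library, so it passed no filter and was not tested. Of the 10 further ligands listed, 3 (Cntf, Il27 and Il31) were at 0 in all 38 libraries, and none passed the filter on low counts in cardiomyocytes or ECs. In fibroblasts Il11 passed it with 6 to 15 counts and was not called in any comparison of groups. Osm, the gene of oncostatin M, had at most 2 counts in an EC library, 5 in a fibroblast library and 0 in all cardiomyocyte libraries. These genes were singled out after their values were seen.

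The alpha chain of the IL-6 receptor, Il6ra, was highest in fibroblasts. The Sham fibroblasts were at 53.6, 50.95, 44.3 and 47.5 CPM, the Control-AMI fibroblasts at 116, 100.4, 92.6 and 124 CPM and the EMPA–Pre-AMI fibroblasts at 132, 102, 116 and 78.2 CPM. All 8 libraries of infarcted hearts lay above the Sham libraries. Il6ra rose from 49.1 ± 4.04 CPM to 108 ± 14.3 CPM in Control-AMI (log2 change 1.12, SE 0.18, FDR 0.00204) and to 107 ± 22.8 CPM in EMPA–Pre-AMI (log2 change 1.11, SE 0.18, FDR 0.00214). Within sample-sheet list 4 alone the difference for Control-AMI was 0.95 with an FDR of 0.0245.

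In ECs Il6ra was low in Sham, at 2.19, 7.93, 4.90 and 6.95 CPM, and stood at 20.9, 7.07, 30.9 and 13.2 CPM in Control-AMI and at 5.45, 8.15, 6.37, 6.57 and 6.85 CPM in EMPA–Pre-AMI. Control-AMI overlapped Sham through its replicate 2, and the EMPA–Pre-AMI libraries lay in the range of Sham except for 1 that was just above it. Il6ra passed the test upward in Control-AMI against Sham (log2 change 1.68, SE 0.40, FDR 0.0127) and downward in EMPA–Pre-AMI against Control-AMI (log2 change -1.40, SE 0.37, FDR 0.0418), and did not pass it in EMPA–Pre-AMI against Sham (log2 fold change 0.28 (95% interval -0.55 to 1.11, FDR 0.813)). Il6ra thus moved in the same directions as the fibroblast markers of these libraries, whose part in the result was not tested. The highest Il6ra value belonged to Control-AMI replicate 3, whose leukocyte markers summed to 467 CPM. Without that library the difference from Sham was 1.29 with an FDR of 0.0601, and the difference between EMPA–Pre-AMI and Control-AMI lost its call when any 1 of 7 libraries was left out (replicate 1, 3 or 4 of Control-AMI and replicate 1, 3, 4 or 5 of EMPA–Pre-AMI), with FDR values from 0.0510 to 0.176. Within sample-sheet list 2 the differences were 1.5 (FDR 0.147) and -1.48 (FDR 0.732), and with the list as a term they were 1.67 (FDR 0.0696) and -1.28 (FDR 0.641).

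In cardiomyocytes Il6ra ran from 0 to 20.6 CPM, with overlapping groups and no call. The group means were 14.4 ± 4.37 CPM in Sham, 14.7 ± 4.57 CPM in Control-AMI and 8.01 ± 5.47 CPM in EMPA–Pre-AMI, where 1 library had no count.

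Il6st, which encodes the shared chain gp130, was detected in all 38 libraries and was not called between any groups. It averaged 232 ± 60.4, 253 ± 66.9 and 205 ± 64.4 CPM in ECs and 218 ± 18.4, 243 ± 18.2 and 243 ± 53.2 CPM in fibroblasts, in the order Sham, Control-AMI and EMPA–Pre-AMI. The difference of Control-AMI from Sham was 0.11 (95% interval -0.38 to 0.60, FDR 0.857) in ECs and 0.14 (95% interval -0.21 to 0.49, FDR 0.694) in fibroblasts, as log2 fold changes. In cardiomyocytes Il6st was at 85.2 to 132 CPM in Sham, 106.01 to 124 CPM in Control-AMI and 58.6 to 89.01 CPM in EMPA–Pre-AMI. Every EMPA–Pre-AMI library was below every Control-AMI library, but the difference did not pass the test (log2 change -0.59, SE 0.20, FDR 0.0908). Without EMPA–Pre-AMI replicate 4 it was -0.66 with an FDR of 0.0493. With the list as a term, where that library alone carries the EMPA–Pre-AMI side, the difference was -0.44. The fibroblast markers of these cardiomyocyte libraries summed to 475 to 2737 CPM in EMPA–Pre-AMI against 2054 to 4498 CPM in Control-AMI, with 0 of the 9 tested positive in sign and a median of -1.10, and their part in the result was not tested.

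Lifr, which pairs with gp130 to bind Lif, was also detected in all libraries and called between no groups in the fit without the list. It averaged 141 ± 16.01, 126 ± 28.3 and 124 ± 41.1 CPM in ECs, and 72.7 ± 28.9, 68.7 ± 25.2 and 78.6 ± 26.5 CPM in fibroblasts. With the sample-sheet list as a term Lifr was called lower in Control-AMI than in Sham fibroblasts, by a log2 change of -0.67 (FDR 0.0279), where the fit without it gave -0.09 (95% interval -0.82 to 0.63, FDR 0.912). Within list 1 the Sham libraries were at 50.07 to 72.6 CPM and the 2 libraries of infarcted hearts at 31.5 and 42.9 CPM, and within list 4 the Sham library was at 114 CPM and the 5 others at 75.4 to 90.5 CPM. In cardiomyocytes it ran from 40.99 to 134.9 CPM, the highest value being Control-AMI replicate 3, and EMPA–Pre-AMI differed from Control-AMI by -0.62 (95% interval -1.07 to -0.18, FDR 0.0928) on the log2 scale. Without EMPA–Pre-AMI replicate 4 that difference was -0.81 with an FDR of 0.0207. With the list as a term, where that library alone carries the EMPA–Pre-AMI side, the difference was -0.20. The fibroblast markers were lower in these EMPA–Pre-AMI libraries, as given for Il6st, and their part was not tested here either.

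Osmr, the oncostatin M receptor chain, was higher after infarction in ECs. The Sham ECs were at 28.8, 41.8, 36.2 and 39.5 CPM, the Control-AMI ECs at 46.3, 127, 59.1 and 68.5 CPM and the EMPA–Pre-AMI ECs at 74.5, 97.5, 57.7, 97.8 and 67.7 CPM. No infarcted library came down to the Sham range. Osmr rose from a Sham mean of 36.6 ± 5.65 to 75.2 ± 35.7 CPM in Control-AMI (log2 change 1.01, SE 0.26, FDR 0.0260) and to 79.04 ± 17.99 CPM in EMPA–Pre-AMI (log2 change 1.11, SE 0.25, FDR 0.0191). Both calls were near the threshold. The first was lost without Sham replicate 1, 3 or 4 or Control-AMI replicate 2 or 4 (FDR 0.0533 to 0.0728) and the second without any 1 Sham library or EMPA–Pre-AMI replicate 4 (FDR 0.0518 to 0.0731), while a fit with the sample-sheet list as a term gave 1.31 with an FDR of 0.0207 for Control-AMI and 1.12 with an FDR of 0.0115 for EMPA–Pre-AMI. Within list 2 they were 1.25 (FDR 0.0487) and 0.96 (FDR 0.0851).

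In fibroblasts Osmr was at 27.3, 22.4, 18.01 and 39.2 CPM in Sham, 42.6, 61.1, 40.3 and 60.4 CPM in Control-AMI and 53.6, 56.4, 37.05 and 83.8 CPM in EMPA–Pre-AMI. The Control-AMI libraries all lay above the Sham libraries, and 1 EMPA–Pre-AMI library lay within the Sham range. The difference passed the test in EMPA–Pre-AMI against Sham (log2 change 1.09, SE 0.27, FDR 0.0280) and missed it in Control-AMI against Sham (log2 change 0.91, SE 0.27, FDR 0.0675), although the 2 groups did not differ from each other by the test (log2 fold change 0.18 (95% interval -0.38 to 0.74, FDR 1.00)). Without Sham replicate 4 or EMPA–Pre-AMI replicate 4 the Control-AMI difference passed (FDR 0.0375 to 0.0445), and without Sham replicate 2 or 3 or EMPA–Pre-AMI replicate 2 or 4 the EMPA–Pre-AMI difference did not (FDR 0.0601 to 0.0949). The Control-AMI difference also passed with the list as a term (1.08, FDR 0.0189), with DESeq2 (FDR 0.0261) and with no filter on low counts (FDR 0.0364). Within list 4 neither passed, at 0.82 (FDR 0.211) and 0.78 (FDR 0.286).

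In cardiomyocytes Osmr was at 0 to 15.9 CPM, with means of 12.2 ± 4.25, 9.58 ± 2.78 and 4.07 ± 3.01 CPM, and was not called. The EMPA–Pre-AMI values were the lowest (log2 fold change against Sham -1.44 (95% interval -2.50 to -0.39, FDR 0.176)), and the fibroblast markers of those libraries summed to 475 to 2737 CPM against 2439 to 3558 CPM in Sham. The part of those markers in the difference was not tested. Without EMPA–Pre-AMI replicate 4 the difference was -1.82 with an FDR of 0.0494. With the list as a term, where that library alone carries the EMPA–Pre-AMI side, the difference was -0.75.

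Stat3, the transcription factor that all these receptors act through, was higher in both sorted populations of infarcted hearts. In ECs the Sham libraries were at 199.7, 221, 222 and 223 CPM, the Control-AMI libraries at 286, 474, 359 and 315 CPM and the EMPA–Pre-AMI libraries at 318, 366, 273, 444 and 338 CPM. In fibroblasts they were at 148, 269, 222 and 261 CPM, 381, 640.3, 442 and 619 CPM and 448, 422, 355 and 692 CPM in the same order. In neither population did a library of an infarcted heart reach down to a Sham library. In ECs Stat3 rose from a Sham mean of 216 ± 11.2 to 358 ± 82.8 CPM in Control-AMI (log2 change 0.70, SE 0.17, FDR 0.0133) and to 348 ± 63.7 CPM in EMPA–Pre-AMI (log2 change 0.68, SE 0.16, FDR 0.0188). In fibroblasts it rose from a Sham mean of 225 ± 55.03 to 521 ± 129 CPM (log2 change 1.19, SE 0.24, FDR 0.0103) and to 479 ± 147 CPM (log2 change 1.08, SE 0.24, FDR 0.0172).

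The EMPA–Pre-AMI calls for Stat3 rested on few libraries. In ECs the call was lost without Sham replicate 2, 3 or 4 or EMPA–Pre-AMI replicate 4 (FDR 0.0621 to 0.0731), and in fibroblasts without Sham replicate 3 or EMPA–Pre-AMI replicate 4 (FDR 0.0530 to 0.0579). Within sample-sheet list 2 the EC difference was 0.90 (FDR 0.0128) in Control-AMI and 0.52 (FDR 0.109) in EMPA–Pre-AMI. Within list 4 the fibroblast differences, with 1 Sham library, were 1.72 (FDR 0.00633) and 1.39 (FDR 0.0250).

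Cardiomyocyte Stat3 was not called between any groups. It was at 158, 157, 148 and 186 CPM in Sham, 174, 175, 133, 154 and 155 CPM in Control-AMI and 197, 211, 278 and 153 CPM in EMPA–Pre-AMI. The Sham and Control-AMI ranges overlapped (log2 fold change -0.02 (95% interval -0.41 to 0.37, FDR 1.00)), and 3 of 4 EMPA–Pre-AMI libraries lay above them, without passing the test against Control-AMI (log2 change 0.46, SE 0.19, FDR 0.137). Without EMPA–Pre-AMI replicate 4, the one library at 153 CPM, the difference was 0.60 with an FDR of 0.0288. With the list as a term that library alone carries the EMPA–Pre-AMI side. The difference was then -0.08, a sign that rests on 1 library. Stat3 overlaps Stat5a on the opposite strand, and since use of strand in the counting is not given in the sources used here, reads from the overlap cannot be assigned to 1 of the 2 genes. Long noncoding RNAs overlap Il6, Il6ra, Il6st, Lifr, Osmr, Stat3 and Socs3 in the same way.

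Socs3, the feedback inhibitor, had the widest change after Il6. In fibroblasts the Sham libraries were at 31.9, 25.3, 17.4 and 50.3 CPM, the Control-AMI libraries at 89.1, 177, 189.8 and 411 CPM and the EMPA–Pre-AMI libraries at 199, 45.95, 141 and 265 CPM. Control-AMI lay wholly above Sham, while EMPA–Pre-AMI replicate 2, at 45.95 CPM, lay within the Sham range. Socs3 rose from a Sham mean of 31.2 ± 14.02 to 217 ± 137 CPM in Control-AMI (log2 change 2.77, SE 0.60, FDR 0.0273) and to 163 ± 93.1 CPM in EMPA–Pre-AMI (log2 change 2.36, SE 0.59, FDR 0.0451). The spread between libraries was wide, and leaving out 1 of 6 libraries (Sham replicate 1, 2 or 3 or Control-AMI replicate 2, 3 or 4) took the first FDR to between 0.0529 and 0.0841. For the second, leaving out any Sham library, replicate 2 or 3 of Control-AMI, or replicate 1, 3 or 4 of EMPA–Pre-AMI took it to between 0.0645 and 0.123. Within list 4 the differences were 2.26 (FDR 0.516) and 1.56 (FDR 0.672), with 1 Sham library, and with no filter on low counts the FDR values were 0.0635 and 0.0941. The highest library, Control-AMI replicate 4, is the one with the mural sum of 4366 CPM.

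In ECs Socs3 was at 20.4, 38.7, 12.9 and 23.02 CPM in Sham, 65.2, 153, 174 and 61.3 CPM in Control-AMI and 69.8, 171, 76.8, 137 and 116 CPM in EMPA–Pre-AMI. All 9 libraries of infarcted hearts were above the Sham libraries. The highest value was that of Control-AMI replicate 3, whose leukocyte markers summed to 467 CPM, and their part was not tested. Socs3 rose from a Sham mean of 23.8 ± 10.9 to 113 ± 58.4 CPM in Control-AMI (log2 change 2.22, SE 0.46, FDR 0.0157) and to 114 ± 42.1 CPM in EMPA–Pre-AMI (log2 change 2.26, SE 0.45, FDR 0.0192). In EMPA–Pre-AMI the fibroblast markers summed to 367 to 734 CPM against 416 to 1097 CPM in Sham. The leukocyte markers summed to 14.6 to 93.2 CPM against 9.50 to 24.1 CPM, and the part of either list was not tested. The EMPA–Pre-AMI call was lost without Sham replicate 1, 3 or 4 (FDR 0.0554 to 0.0671). Within sample-sheet list 2 the differences were 2.70 (FDR 0.0658) and 2.08 (FDR 0.0995), and with the list as a term that of Control-AMI was 2.77 (FDR 0.00594).

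In cardiomyocytes Socs3 was at 9.64, 8.21, 8.60 and 14.9 CPM in Sham, 41.5, 45.5, 2.29, 40.3 and 46.2 CPM in Control-AMI and 54.1, 71.4, 99.4 and 34.7 CPM in EMPA–Pre-AMI. In Control-AMI 4 of 5 libraries stood above all Sham libraries, and the remaining one, replicate 3, held only 3 counts and was the lowest of all cardiomyocyte libraries. The difference from Sham did not pass the test (log2 change 1.77, SE 0.55, FDR 0.828), and without replicate 3 it did, at 2.07 with an FDR of 0.00691. EMPA–Pre-AMI lay wholly above Sham without a call (log2 change 2.71, SE 0.57, FDR 0.0673), and leaving out EMPA–Pre-AMI replicate 4 gave 2.94 (FDR 0.00706), while leaving out Control-AMI replicate 3, which changes the shared spread, gave 2.72 (FDR 0.000161). With the list as a term EMPA–Pre-AMI replicate 4 alone carries the EMPA–Pre-AMI side. The EMPA–Pre-AMI difference from Sham was then 1.71, and that from Control-AMI went from 0.93 to -0.06.

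**Figure D2:**
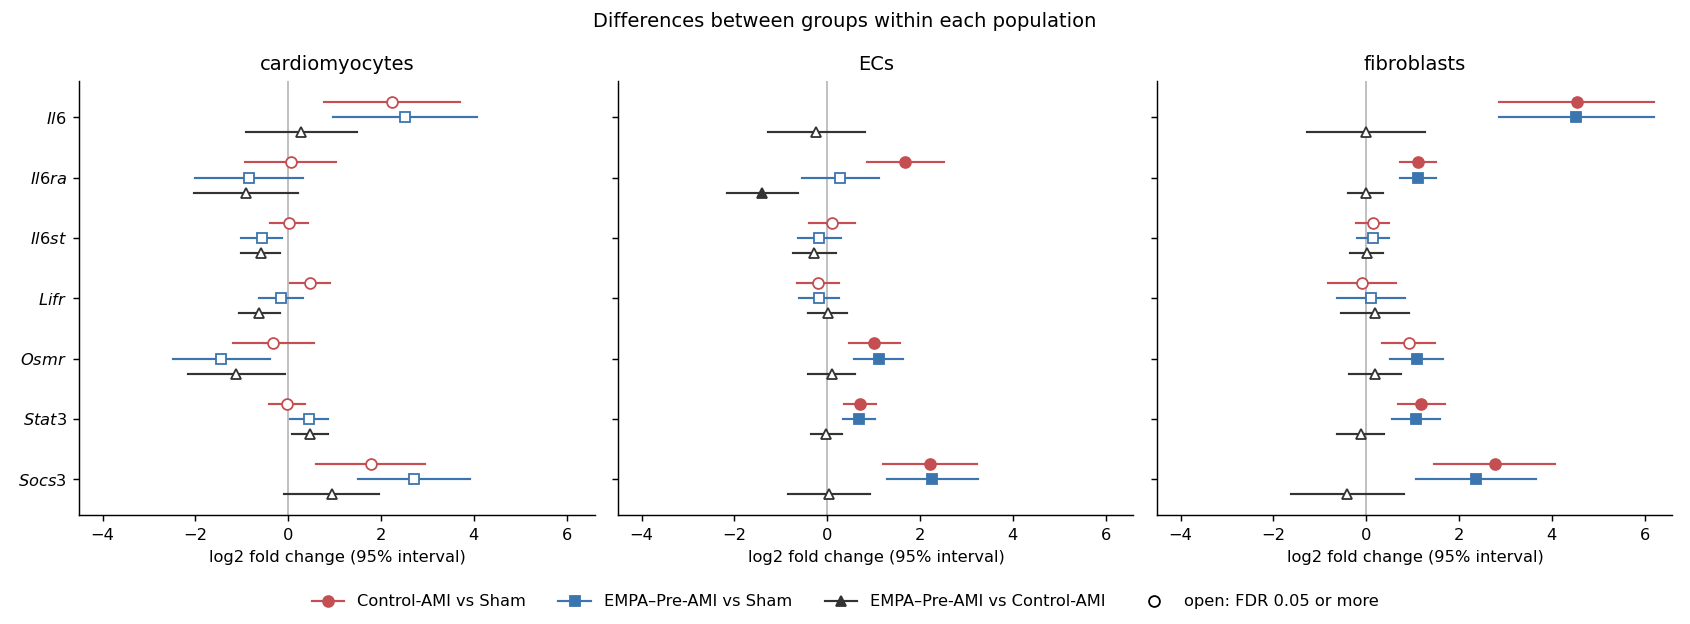
Log2 fold changes of the 7 tested members (horizontal axes) with 95% intervals in cardiomyocytes, ECs and fibroblasts for the 3 comparisons of groups, filled where the FDR was below 0.05. Il6 in ECs against Sham is not drawn because all 4 Sham libraries were at 0. The differences of EMPA–Pre-AMI from Control-AMI have intervals that include 0 for all members in fibroblasts and for all but Il6ra in ECs.

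Counted over the set, 7 of the 8 members passed the filter on low counts in each population. In Control-AMI against Sham, 5 of 7 were called higher and 0 lower in ECs, where 6.56% of all genes tested were called and 4.09% were called higher. In fibroblasts 4 of 7 were called higher and 0 lower, against 4.16% called and 2.99% called higher among all genes. With the sample-sheet list as a term 4 were called in ECs, without Il6ra, and 6 in fibroblasts, with Osmr higher and Lifr lower in addition. The median log2 fold change of the tested members was 1.01 in ECs and 1.12 in fibroblasts, beside medians of -0.02 and -0.03 over all genes tested. In cardiomyocytes 0 of 7 were called against 0.0655% of all genes, with 3 of 7 (Il6, Socs3 and Lifr) at an unadjusted p below 0.05, as were 2.72% of all genes, and 0 called by DESeq2.

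The groups did not overlap, with the infarcted group higher, for 4 of the 7 in ECs (Il6, Osmr, Stat3 and Socs3), where this held for 6.37% of all genes tested, and for 5 of 7 in fibroblasts (Il6, Il6ra, Osmr, Stat3 and Socs3), where it held for 7.02%. In cardiomyocytes it held for Il6 alone of the 7, and for 1.22% of all genes.

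EMPA–Pre-AMI against Sham gave 4 of 7 called higher in ECs (Il6, Osmr, Stat3 and Socs3), beside 2.71% of all genes called and 2.08% called higher, with a member median of 0.68. In fibroblasts it gave 5 of 7 called higher, beside 5.11% called and 3.65% called higher, with a member median of 1.09. In cardiomyocytes 0 of 7 were called, beside 0.338% of all genes, with 5 of 7 at an unadjusted p below 0.05, as were 18.2% of all genes, and 2 called by DESeq2. The groups did not overlap, with EMPA–Pre-AMI higher, for 4 of 7 in ECs (4.11% of all genes), 3 of 7 in fibroblasts (6.77%) and 1 of 7, Socs3, in cardiomyocytes (2.78%). This comparison shares its Sham libraries with the previous one.

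Pretreatment with EMPA was compared with vehicle in the infarcted hearts, which shares the Control-AMI libraries with the first comparison. In fibroblasts 0 of 7 members were called by edgeR, as were 0% of all genes tested, with 0 members and 1.59% of all genes at an unadjusted p below 0.05 and 0 members by DESeq2. The differences were -0.01 (95% interval -1.28 to 1.27, FDR 1.00) for Il6, -0.01 (95% interval -0.39 to 0.37, FDR 1.00) for Il6ra and -0.11 (95% interval -0.62 to 0.39, FDR 1.00) for Stat3. For Socs3 the difference was -0.40 (95% interval -1.62 to 0.81, FDR 1.00), and the intervals of Il6 and Socs3 were the widest of the 7, so that a difference of more than 1 log2 unit is still within them.

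In ECs 1 of 7 members, Il6ra, was called lower and 0 higher, beside 2.63% of all genes called and 2.28% called lower, and 12.2% at an unadjusted p below 0.05. For Il6 the difference was -0.24 (95% interval -1.28 to 0.81, FDR 0.920), for Osmr 0.10 (95% interval -0.41 to 0.61, FDR 0.939), for Stat3 -0.02 (95% interval -0.35 to 0.31, FDR 0.983) and for Socs3 0.04 (95% interval -0.84 to 0.92, FDR 0.985). These 4 members stayed above Sham in both infarcted groups, whereas the fibroblast markers and Il6ra were lower with EMPA. The part of the markers in these values was not tested. In cardiomyocytes 0 of 7 were called by edgeR, beside 0.0218% of all genes, with 4 of 7 (Stat3, Il6st, Osmr and Lifr) at an unadjusted p below 0.05, as were 25% of all genes, and 1 by DESeq2. For Il6st alone of the 7 the EMPA–Pre-AMI libraries were all below the Control-AMI libraries, which held for 3.94% of all genes. The sign was negative for Il6ra, Il6st, Lifr and Osmr and positive for Il6, Stat3 and Socs3. All Control-AMI cardiomyocytes were on sample-sheet list 4 and 3 of the 4 from EMPA-treated mice on list 2 or 3, so the list and the treatment largely cannot be told apart there.

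**Figure D3:**
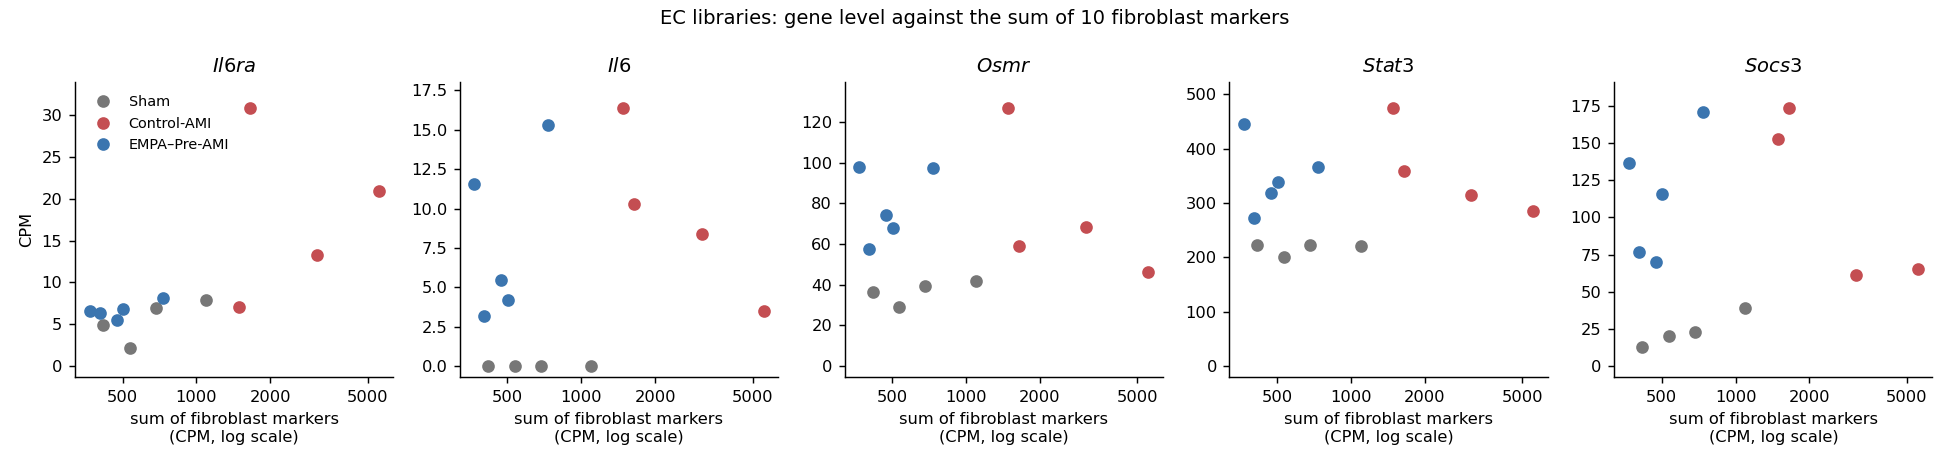
Levels (CPM) of Il6ra, Il6, Osmr, Stat3 and Socs3 (vertical axes) against the summed level of 10 fibroblast markers (horizontal axis, logarithmic, CPM) in the 13 EC libraries, colored by group. The Control-AMI libraries lie at 1487 to 5547 CPM of fibroblast markers and the other 9 libraries at 1097 CPM or less, and the EMPA–Pre-AMI libraries have Il6, Osmr, Stat3 and Socs3 above Sham at fibroblast sums in or below the Sham range.

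Between the populations, the ligand and its alpha chain were both highest in fibroblasts, while Osmr and gp130 RNA were shared by ECs and fibroblasts. These comparisons come from 1 fit of all 38 libraries and are log2 differences. Per the study's methods, the 3 populations were separated from the same digested hearts. The labels do not say which libraries share hearts, so the fit treats all libraries as independent, here and in the differences of differences. In Sham, Il6ra was higher in fibroblasts than in cardiomyocytes (log2 difference 1.77, SE 0.36, FDR 0.000112) and lower in ECs than in cardiomyocytes (log2 difference -1.38, SE 0.42, FDR 0.00547), which orders the libraries as fibroblasts, cardiomyocytes and ECs with no overlap between them. The unsorted Sham cardiomyocytes also carried fibroblast markers that summed to 2439 to 3558 CPM. These summed to 416 to 1097 CPM in Sham ECs and to 13093 to 18482 CPM in Sham fibroblasts. Their part in this order, and in the Il6 level of cardiomyocytes, was not tested. In Control-AMI fibroblasts remained above cardiomyocytes (log2 difference 2.87, SE 0.34, FDR 4.2e-09), while ECs and cardiomyocytes were not told apart (log2 difference 0.28 (95% interval -0.44 to 1.01, FDR 0.548)). The fibroblast markers of the Control-AMI libraries summed to 1487 to 5547 CPM in ECs and 2054 to 4498 CPM in cardiomyocytes. Their part in the Control-AMI result was not tested.

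For Il6 itself, the Sham populations were all near the floor of 3 counts. ECs, at 0, were at least 1.35-fold below fibroblasts (FDR 0.0139, ranges overlapping because 1 fibroblast library was also at 0), and no fold is given against cardiomyocytes, where both were at or near the floor. The test still called Il6 lower in Sham ECs than in Sham cardiomyocytes (FDR 0.0447), which held 0 to 4 counts. That call was lost in 16 of the 38 fits that each left out 1 library (FDR up to 0.125). It was also lost with no filter on low counts (FDR 0.0977). In Control-AMI fibroblasts exceeded cardiomyocytes (log2 difference 2.78, SE 0.59, FDR 0.000227) and ECs (-2.16 for ECs against fibroblasts, SE 0.57, FDR 0.00379), with 1 fibroblast library, at 9.93 CPM, inside the range of both other populations. ECs and cardiomyocytes were not told apart (log2 difference 0.62 (95% interval -0.67 to 1.91, FDR 0.451)).

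Il6st was higher in ECs than in cardiomyocytes in Sham (log2 difference 1.00, SE 0.21, FDR 0.000113) and in Control-AMI (log2 difference 1.13, SE 0.20, FDR 9.09e-06), and likewise in fibroblasts (log2 difference 0.91, SE 0.21, FDR 0.000435 in Sham). ECs and fibroblasts did not differ by the test, with a difference of 0.09 (95% interval -0.33 to 0.50, FDR 0.784) in Sham. Osmr had the same order, with ECs above cardiomyocytes in Sham (log2 difference 1.59, SE 0.34, FDR 0.000133) and in Control-AMI (log2 difference 2.96, SE 0.32, FDR 4.2e-10), fibroblasts above cardiomyocytes (log2 difference 1.14, SE 0.34, FDR 0.00520 in Sham), and ECs and fibroblasts not told apart (0.45 (95% interval -0.16 to 1.05, FDR 0.255) in Sham). With the list as a term the difference of fibroblasts from cardiomyocytes in Sham lost its call, at 0.85 (FDR 0.0717).

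Lifr was the member that was highest in ECs. In Sham it exceeded fibroblasts (log2 difference 0.96, SE 0.28, FDR 0.00602) and cardiomyocytes (log2 difference 1.07, SE 0.29, FDR 0.00193), with no overlap in either case. In Control-AMI it still exceeded fibroblasts (log2 difference 0.87, SE 0.28, FDR 0.0157), a call that was lost without EC Control-AMI replicate 2 or fibroblast Control-AMI replicate 4 (FDR 0.0655 to 0.0862), and was not called against cardiomyocytes (0.45 (95% interval -0.09 to 1.00, FDR 0.172)). With the sample-sheet list as a term the difference between ECs and fibroblasts was 0.10 (FDR 0.873) in Sham and 0.63 (FDR 0.0553) in Control-AMI, so this order depended on that term. Sham ECs and Sham fibroblasts shared no list, so their difference in that fit rests on list effects taken from other groups. In the same fit Lifr was called higher in Sham fibroblasts than in cardiomyocytes (0.89, FDR 0.00805), which it was not without the term (FDR 0.764).

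Stat3 was called between no populations in Sham, and in Control-AMI it was higher than in cardiomyocytes in fibroblasts (log2 difference 1.72, SE 0.20, FDR 2.05e-09) and in ECs (log2 difference 1.18, SE 0.20, FDR 4.66e-06). It was lower in ECs than in fibroblasts (log2 difference -0.54, SE 0.21, FDR 0.0425), with overlap, a call lost without EC Control-AMI replicate 1, 3 or 4 or fibroblast Control-AMI replicate 2 or 4 (FDR 0.0795 to 0.157), with no filter on low counts (FDR 0.0506) and with only the 2 populations (FDR 0.0511). Socs3 in Control-AMI was higher in fibroblasts (log2 difference 2.62, SE 0.52, FDR 0.000113) and in ECs (log2 difference 1.68, SE 0.52, FDR 0.00843) than in cardiomyocytes, and ECs and fibroblasts were not told apart (-0.94 (95% interval -1.99 to 0.11, FDR 0.173)). With the sample-sheet list as a term the Socs3 difference between ECs and cardiomyocytes was 0.95 (FDR 0.140). In Sham, Socs3 was called between fibroblasts and cardiomyocytes (log2 difference 1.59, SE 0.63, FDR 0.0374), a call lost when cardiomyocyte Sham replicate 1, 2 or 3 or fibroblast Sham replicate 1 or 4 was left out (FDR 0.0549 to 0.129), in the fit with the list term (0.88, FDR 0.281), with no filter (FDR 0.0590) and with only the 2 populations (FDR 0.0526).

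Over the set, ECs against fibroblasts gave 1 of 7 members higher and 2 lower in Sham, where 37.7% of the 12085 genes of this fit were called (17.6% higher and 20.2% lower), and 1 higher and 3 lower in Control-AMI, where 31.8% were called (15.9% and 15.9%). ECs against cardiomyocytes gave 3 higher and 2 lower in Sham (52.9% of all genes, 24.8% higher and 28.1% lower) and 4 higher and 0 lower in Control-AMI (46%, 23.5% and 22.5%). Fibroblasts against cardiomyocytes gave 4 higher and 0 lower in Sham (47.3%, 22.7% and 24.5%) and 6 higher and 0 lower in Control-AMI (46.2%, 22% and 24.2%). With these backgrounds, calls between populations were common among all genes.

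**Figure D4:**
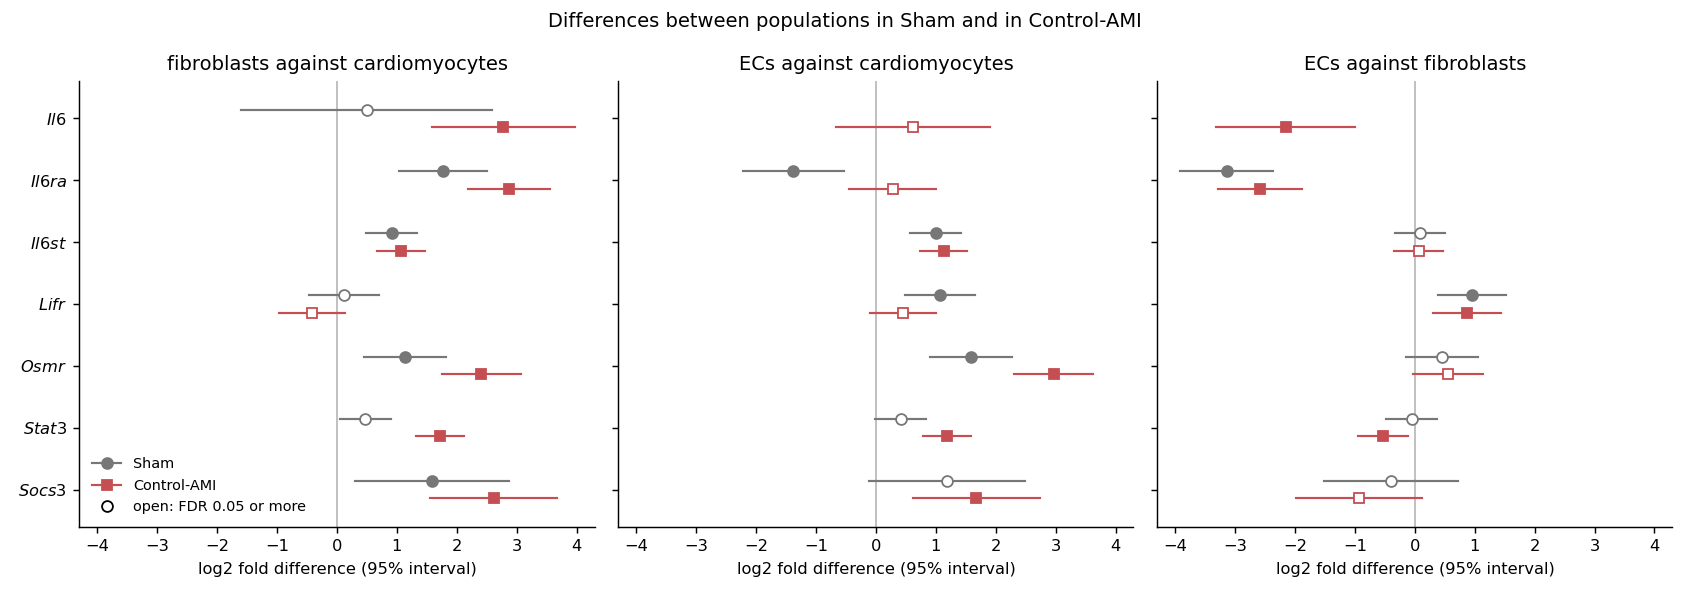
Log2 differences of the 7 tested members between populations (horizontal axes) with 95% intervals, in Sham (circles) and Control-AMI (squares), filled where the FDR was below 0.05. Il6 for ECs in Sham is not drawn because all 4 libraries were at 0. Il6ra lies to the right for fibroblasts against cardiomyocytes and to the left for ECs against fibroblasts in both groups.

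Whether the response to infarction differed between populations was tested as a difference of differences in the same fit. Stat3 was the single member called, with a response larger in fibroblasts than in cardiomyocytes by 1.24 on the log2 scale (SE 0.29, FDR 0.0416), beside 0.331% of all genes called, 0.306% in this direction and 8.47% at an unadjusted p below 0.05. The call was lost in 15 of the 38 fits that each left out 1 library, among them any Sham cardiomyocyte library, Control-AMI cardiomyocyte replicates 2 to 5 and fibroblast Sham replicates 1, 3 and 4, with FDR values of 0.0504 to 0.112. Between ECs and cardiomyocytes 0 of 7 were called, beside 1.51% of all genes, with 4 at an unadjusted p below 0.05 (9.09% of all genes) and 1 by DESeq2, the difference being 1.66 for Il6ra (FDR 0.160) and 1.38 for Osmr (FDR 0.194). Between ECs and fibroblasts 0 of 7 were called, beside 3.22%, with 0 at an unadjusted p below 0.05 (12.8% of all genes) and 0 by DESeq2. For the response to EMPA 0 of 7 were called between any populations (backgrounds 2.04%, 0.993% and 0.00827% for ECs against fibroblasts, ECs against cardiomyocytes and fibroblasts against cardiomyocytes). In these, 1, 1 and 3 members had an unadjusted p below 0.05, beside 8.09%, 16.5% and 15.2% of all genes, and DESeq2 called 0. The lower Il6ra with EMPA in ECs was therefore not shown to be particular to ECs (-1.41 against fibroblasts, FDR 0.169).

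The rest of the pathway was read from a list of 50 genes, which holds other ligands, other receptor chains and sheddases, kinases with adaptors and other STATs, inhibitors, and genes known as STAT3 targets. In ECs 36 of the 50 were tested, and in Control-AMI against Sham 9 were called higher and 1 lower, beside 4.09% of all genes called higher and 6.56% in either direction, with a list median of 0.35. The higher genes were 3 of 7 inhibitors and 6 of 16 tested STAT3 targets. With the smallest FDR were Bcl2l1, an inhibitor of apoptosis (log2 change 0.97, SE 0.19, FDR 0.00346), Cebpb, a transcription factor of inflammation (log2 change 3.01, SE 0.58, FDR 0.00350), and the 2 SOCS family inhibitors Cish (1.00, FDR 0.00407) and Socs2 (0.84, FDR 0.00417). In EMPA–Pre-AMI against Sham 6 were called higher (beside 2.08% of all genes) and 0 lower, and the same 4 genes had the smallest FDR, Bcl2l1 at 1.36, Cish at 1.2, Socs2 at 0.91 and Cebpb at 3.03 (FDR 0.000136, 0.000661, 0.00183 and 0.00322).

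In fibroblasts 39 of the 50 were tested, and 11 were higher and 1 lower in Control-AMI against Sham, beside 2.99% of all genes called higher and 4.16% in either direction, with a list median of 0.56. The higher genes were 4 of 7 inhibitors and 7 of 18 STAT3 targets, led by Socs2 (log2 change 1.38, SE 0.17, FDR 0.000169), Bcl2l1 (log2 change 1.63, SE 0.22, FDR 0.000431), Il4ra, a chain of the interleukin-4 receptor (log2 change 1.49, SE 0.21, FDR 0.000512), and Ptpn1, a tyrosine phosphatase (log2 change 1.17, SE 0.18, FDR 0.00128). In EMPA–Pre-AMI against Sham 16 were higher (beside 3.65% of all genes), 12 of them STAT3 targets, and 3 lower, which were the STAT inhibitor Pias3 (-0.90, FDR 0.0260), Stat5b (-0.98, FDR 0.0483) and the adaptor Gab1 (-1.21, FDR 0.0492). The mural markers of these libraries summed to 746 to 2081 CPM in Sham, 649 to 4366 CPM in Control-AMI and 1151 to 2306 CPM in EMPA–Pre-AMI, with 1 of 10 called higher in each infarcted group, and their part in the result was not tested.

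In cardiomyocytes 30 of the 50 were tested. None was called by edgeR in Control-AMI against Sham, beside 0.0655% of all genes. There 6 had an unadjusted p below 0.05, as had 2.72% of all genes, and DESeq2 called 0. In EMPA–Pre-AMI against Sham 3 were called higher, beside 0.338% of all genes called in either direction. These were Cish (log2 change 1.35, SE 0.22, FDR 0.00384), the transcription factor Cebpd (log2 change 1.94, SE 0.37, FDR 0.0214) and Bcl2l1 (log2 change 1.62, SE 0.33, FDR 0.0333). The leukocyte markers of the cardiomyocyte libraries summed to 49.3 to 109 CPM in Sham, 62.8 to 231 CPM in Control-AMI and 66.2 to 449 CPM in EMPA–Pre-AMI. In each infarcted group 1 of 5 tested was called higher than Sham, and their part in the result was not tested. Between EMPA–Pre-AMI and Control-AMI edgeR called 0 genes of the list in any population. Beside this it called 0.0218%, 2.63% and 0% of all genes in cardiomyocytes, ECs and fibroblasts. In the same order 4 of 30, 4 of 36 and 1 of 39 had an unadjusted p below 0.05, as had 25%, 12.2% and 1.59% of all genes. DESeq2 called 1, 1 and 0 of the list. Cish, an inhibitor, responded unequally to infarction. Its rise was larger in fibroblasts than in cardiomyocytes by 2.68 (SE 0.51, FDR 0.00599) and smaller in ECs than in fibroblasts (-2.35, SE 0.52, FDR 0.00725). In each comparison it was the 1 gene called of 40 tested of the list, beside 0.331% and 3.22% of all genes. Between ECs and cardiomyocytes 1 of 40, a gene known as a STAT3 target, was called with the change higher in ECs, beside 1.51% of all genes.

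The genes whose pattern was most like each member are given as a description, by Pearson r over the 9 group means of log2(CPM + 1) among 12084 genes. Since the 9 means span 3 populations with different libraries and depths, high values are common. For Il6 these were Adamts4 (r = 0.973), Cxcl2 (0.957) and Mt2 (0.949), and for Il6ra they were Ifi211 (0.994), Fst (0.992) and Ccdc80 (0.992). For Osmr they were Nufip2 (0.994), Mark3 (0.993) and Ythdf1 (0.993). Stat3 was most like Ptpn1 (0.989), Camk2n2 (0.984) and Ubash3b (0.976), of which Ptpn1 is also in the pathway list. Socs3 was most like Klf9 (0.956), Nol10 (0.955) and Arf6 (0.939).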

How the data were processed

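Libraries were made with a 3′ tag method (QuantSeq) and deposited as 1 table of estimated counts per gene, made by the authors with Salmon on GRCm39 after trimming with cutadapt 2.8 (per the labels and the study's methods). In all, 4.549% of values were fractional, and the estimated counts were rounded. Symbols and positions came from a GENCODE annotation of GRCm39 by Ensembl identifier (35407 of 35682 genes matched). Each population was fitted separately with edgeR 4.0.16 (R 4.3.3) as in the study's methods: filterByExpr with a minimum count of 10, TMM factors, robust quasi-likelihood fits with 3 groups, glmQLFTest, and Benjamini-Hochberg adjustment over all genes tested. A fit of all 38 libraries gave the contrasts between populations and the differences of differences. Intervals cover 95%. Libraries were sequenced at one time per the study's methods, so the sample-sheet lists that the labels number need not be batches. Alternatives were DESeq2 1.42.0, RLE factors, other filters, non-robust fits, only the groups compared, a block on replicate number, a term for the list, single lists, mitochondrial genes left out, and each library left out.

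All 8 members were named, with values in every library for those called within a population. Of the pathway list, at most 4 called genes per direction and comparison were named, by smallest FDR, and likeness named the 3 genes of highest r. The members and the lists were chosen with earlier results of these data known. The fits of each population alone were run on simulated counts for Control-AMI against Sham, and the joint fit of all libraries was not. Floors are 3 counts and cover counting error only. No sequence of a protein was used here. Some results of the pathway list are not reported here.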

Additional observations from a re-analysis of the deposited data

Results flagged for a closer look

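In 5 of the 64 groups of 4 or 5 libraries that were tested for a single distant value, 1 library stood apart from the rest, where chance gives about 1 in 20 groups. In EMPA–Pre-AMI fibroblasts, Il6 was 81.8 CPM in replicate 4 against 25.2 to 34.1 CPM in the others, and the highest Control-AMI fibroblast library, at 76.9 CPM, came from the same sample-sheet list, list 1, as did 3 of the 4 Sham fibroblast libraries with 0 to 2.65 CPM. In EMPA–Pre-AMI ECs, Il6st was 319 CPM in replicate 2 against 162 to 191 CPM. In Control-AMI cardiomyocytes replicate 3 stood apart for 2 members, with Lifr at 135 CPM against 73.4 to 90.0 CPM and Socs3 at 2.29 CPM, which is 3 counts, against 40.3 to 46.2 CPM. In Sham ECs, Stat3 was 199.7 CPM in replicate 1 against 221 to 223 CPM.

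The response of Stat3 to infarction differed between fibroblasts and cardiomyocytes by 1.24 on the log2 scale (SE 0.29, FDR 0.0416 by edgeR), with Stat3 at 225 ± 55.03 and 521 ± 129 CPM in Sham and Control-AMI fibroblasts and at 162 ± 16.6 and 158 ± 17.1 CPM in cardiomyocytes.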

How the results depend on the processing

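Across 46 called values of members and 1617 alternative fits of them, 1498 kept direction and call, 119 kept direction without the call, and 0 reversed. Of 101 uncalled values, 15 passed the test under some alternative and 42 changed sign under some. Leaving out mitochondrial genes moved 43 of 72 mean levels by more than 1 SD, and RLE factors moved 1.

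Counts of members called moved by more than 1.5 times as follows. With DESeq2, cardiomyocytes of EMPA–Pre-AMI gave 1 against Control-AMI and 2 against Sham (0 with edgeR), and the response to infarction between ECs and cardiomyocytes gave 1 (0 with edgeR). In cardiomyocytes EMPA–Pre-AMI against Sham also gave 1 without robust estimation and 1 with only the 2 groups. In ECs, at least 10 counts in every library left 3 of 5 for Control-AMI against Sham, since fewer members were tested, and 0 of 1 for EMPA–Pre-AMI against Control-AMI, where non-robust fits, the list term and list 2 alone also gave 0. List 2 alone, with fewer samples, gave 3 for Control-AMI and 1 of 4 for EMPA–Pre-AMI against Sham in ECs, and list 4 alone gave 2 of 4 and 2 of 5 in fibroblasts. The difference in the Stat3 response gave 0 with RLE factors and 0 with only the 2 populations. Smaller moves included 5 with DESeq2 and 6 with the list term (4 without) for Control-AMI against Sham in fibroblasts, 4 with the list term (5 without) in ECs, and 5 with DESeq2, 5 with RLE factors and 3 with the list term (4 without) for fibroblasts against cardiomyocytes in Sham. Except where named, the cause was not tested.

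Leaving out each library in turn gave 0 to 1 for cardiomyocytes, 4 to 5 for ECs and 3 to 5 for fibroblasts in Control-AMI against Sham. In EMPA–Pre-AMI it gave 0 to 3, 0 to 1 and 0 to 0 against Control-AMI, and 0 to 3, 1 to 4 and 2 to 5 against Sham. Between populations it gave 3 to 3 (Sham) and 2 to 4 (Control-AMI) for ECs against fibroblasts, 4 to 5 and 4 to 4 for ECs against cardiomyocytes, and 3 to 5 and 6 to 6 for fibroblasts against cardiomyocytes. The differences of responses to infarction gave 0 to 0, 0 to 1 and 0 to 1 for ECs against fibroblasts, ECs against cardiomyocytes and fibroblasts against cardiomyocytes, and those of responses to EMPA 0 to 1, 0 to 0 and 0 to 0.

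With a replicate block, 5 members were called in ECs and 5 in fibroblasts for Control-AMI against Sham. With it EMPA–Pre-AMI gave 0 and 0 against Control-AMI and 4 and 5 against Sham, and cardiomyocytes gave 0 throughout. Same-numbered libraries had correlated deviations above 0.1 in 3 of 12 pairs in cardiomyocytes, 4 of 12 in ECs and 6 of 12 in fibroblasts. Their median r was 0.014, 0.041 and 0.099 in that order, against -0.025, -0.0085 and -0.0097 for pairs with other numbers. These values cannot decide whether the replicate numbers pair the samples. In the block fit Osmr passed in Control-AMI against Sham fibroblasts (FDR 0.00739).

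Depth limits Il6 in Sham, Lif and the other ligands most, where libraries held few or no counts.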
